A study of Rattus norvegicus with 9 samples.

Results

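The genes described here are 10 brakes on the cell division cycle: the cyclin-dependent kinase (CDK) inhibitors Cdkn1a, Cdkn1b, Cdkn1c, Cdkn2c and Cdkn2d, the pocket proteins Rb1, Rbl1 and Rbl2, and the antiproliferative genes Btg1 and Btg2. They were taken by name: every probe of the array whose gene symbol is one of these names was used, on all 9 arrays. Of the 10 genes, 8 had a probe, with 13 of the 35129 probes of the table. Cdkn2d and Btg2 had no probe in the annotation used here. Cdkn1b, Cdkn1c, Rbl1 and Rbl2 were read by 1 probe each, Cdkn1a, Rb1 and Btg1 by 2, and Cdkn2c by 3.

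Cyclins bound to CDKs drive a cell from its growth phase into DNA synthesis by phosphorylating the pocket proteins, which otherwise hold E2F transcription factors in check. The CIP/KIP inhibitors (p21 from Cdkn1a, p27 from Cdkn1b, p57 from Cdkn1c) bind cyclin-CDK complexes, and the INK4 inhibitors (p18 from Cdkn2c, p19 from Cdkn2d) bind the cyclin D partners CDK4 and CDK6. Oligodendrocyte progenitors divide until they withdraw from the cycle and differentiate, and p27 and p57 are known for their part in timing that withdrawal.

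The cells came from cultures of oligodendrocyte progenitors, the glial precursors of myelin-forming cells, from newborn rats, and fell into 3 populations by surface antigens; how they were separated is not given in the labels. They were O4 cells, which carried the sulfatide antigen O4 and lacked the proteoglycan NG2; NG2/A2B5 cells, which carried NG2 and the ganglioside antigen A2B5; and NG2 cells, which carried NG2 alone. There are 3 arrays of 1 colour for each population, marked with the numerals I, II and III, and the study's design sets every population against the other two. The series text speaks of 3 cultures but does not tie the numerals to them, and no strain, genotype or treatment is given, so the p-values reflect only how far these 9 arrays spread, which may be technical.

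Values are the deposited scaled intensities of single probes, and differences are given on the log2 scale. Probes differ in how brightly they read, so levels are compared between arrays and not between genes. Between 34926 and 34975 probes had a value on each array, the array medians lay between 1.05 and 1.07, and the 25th percentile, used here as the mark of a dim reading, lay between 0.205 and 0.255. Genes of the lineage were read at widely different brightness: Cspg4, which encodes NG2, at 92.1 to 184.6 and the myelin enzyme gene Cnp at 155 to 265.0, but the progenitor receptor gene Pdgfra at 0.213 to 0.917 and the myelin gene Mbp at 0.0581 to 0.371. Cspg4 did not mark off the NG2-negative O4 cells: its mean log2 intensity was 6.92 ± 0.37 in O4 cells and 7.22 ± 0.15 in NG2 cells (SD over 3 arrays), and O4 minus NG2 was -0.30 (95% interval -0.92 to 0.32, limma adjusted p = 0.803), with overlapping arrays. Of the 8 measured brakes, Cdkn1a, Cdkn1c, Cdkn2c, Rb1 and Btg1 read over the 25th percentile on all 9 arrays, Rbl1 and Rbl2 on 7, and Cdkn1b on 4.

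**Figure D1:**
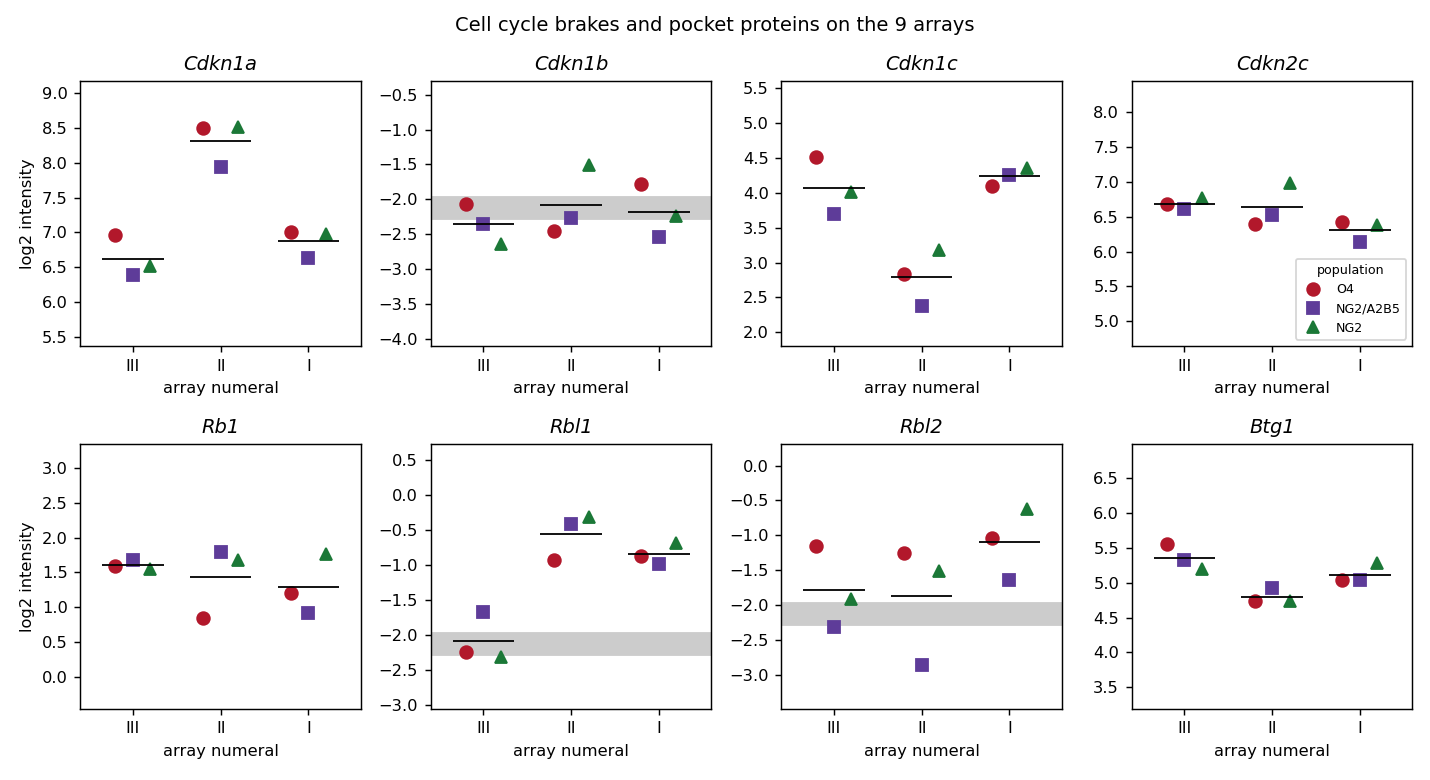
Log2 intensity of the 8 measured brakes on the 9 arrays, by array numeral (x axis) and population (red circles O4, purple squares NG2/A2B5, green triangles NG2). Each panel spans the same number of log2 units, black lines are means of the 3 arrays of a numeral, and the grey band is the range of the arrays' 25th percentiles. Cdkn1a was high and Cdkn1c low on all 3 numeral II arrays, and Rbl1 was low on the 3 numeral III arrays.

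The first question is whether any brake differed between the populations. None did by the test: 0 of the 8 genes were called in any of the 3 pairwise comparisons or in the F test over populations (limma, p adjusted by Benjamini-Hochberg across the whole gene table, threshold 0.05). Calls were rare among all genes too: 0.00822% of genes were called for O4 against NG2, 0.00822% for O4 against NG2/A2B5, 0.0% for NG2/A2B5 against NG2 and 0.00822% in the F test. This fit had no term for the numeral. At an unadjusted p under 0.05 in it, the brakes counted 0 for O4 against NG2 and 1 for O4 against NG2/A2B5. They counted 1 for NG2/A2B5 against NG2 and 1 in the F test, and the gene was Rbl2 each time. The shares of all genes at that level were 8.0%, 3.28%, 4.48% and 5.37%. In bulk samples of this kind, fewer cells of a type and less RNA per cell cannot be told apart.

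Rbl2 encodes p130, the pocket protein known for holding resting cells out of the cycle in the DREAM complex. Its intensities were 0.452, 0.420 and 0.488 on the O4 arrays III, II and I, against 0.201, 0.137 and 0.322 on the NG2/A2B5 arrays and 0.267, 0.352 and 0.649 on the NG2 arrays. Every O4 array read above every NG2/A2B5 array, while the NG2 arrays overlapped both other populations. On the log2 scale O4 minus NG2/A2B5 was 1.13 (95% interval 0.22 to 2.04), a 2.19-fold higher level in O4 cells, with an unadjusted p of 0.0217 and an adjusted p of 0.9997 in limma. The same difference within the numerals was 1.17 in III, 1.62 in II and 0.60 in I. With the numeral as a fixed block it had an unadjusted p of 0.00772 and an adjusted p of 0.805 in limma.

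NG2/A2B5 minus NG2 for Rbl2 was -0.93 (-1.84 to -0.01, limma adjusted p = 0.9999), and -0.41, -1.36 and -1.01 within numerals III, II and I. The readings lie close to the dim end of the arrays: the NG2/A2B5 arrays II and III were under their arrays' 25th percentile. By the brightest probe of each gene, Rbl2 was the single brake of 8 whose O4 arrays all lay above the NG2/A2B5 arrays, where 5.31% of all genes did so and 3.36% lay all below. By the same probes no brake separated the arrays of O4 from NG2, where 7.51% of genes lay above and 6.54% below, or those of NG2/A2B5 from NG2, where 5.19% lay above and 5.01% below.

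For the other brakes, in this fit without the numeral, the population differences lay within the spread between arrays. Cdkn1a averaged 204.3 ± 134 in O4 cells, 143 ± 89.7 in NG2/A2B5 cells and 194 ± 148 in NG2 cells (SD, n = 3 each), and O4 minus NG2/A2B5 was 0.50 (-1.06 to 2.05). Within numerals III, II and I that difference was 0.58, 0.55 and 0.37, so by this brighter probe O4 read above NG2/A2B5 in each. The second Cdkn1a probe gave 1.042, 1.055 and -0.608, so by it O4 read below NG2/A2B5 in numeral I. With the numeral as a fixed block, the brighter probe had an unadjusted p of 0.0136 and an adjusted p of 0.805 in limma. Cdkn1c, whose product p57 restrains division in many differentiating tissues, averaged 15.7 ± 7.95 in O4 cells, 12.5 ± 7.01 in NG2/A2B5 cells and 15.2 ± 5.72 in NG2 cells.

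Btg1 and Cdkn2c had the narrowest intervals of the 8. Btg1, which binds the CCR4-NOT deadenylase and slows proliferation, differed by 0.04 between O4 and NG2 (-0.55 to 0.62), an interval of 0.682 to 1.54 on the fold scale. Cdkn2c differed by -0.21 between O4 and NG2 (-0.70 to 0.28), and by 0.08 between O4 and NG2/A2B5 (-0.41 to 0.57). These are the brightest probes, and dimmer ones gave other values for O4 minus NG2, 0.42 by the second Btg1 probe and 0.16 and 0.45 by the other 2 Cdkn2c probes, none of them called. On the dimmest Cdkn2c probe every O4 array, at 0.935 to 1.22, read above every NG2 array, at 0.731 to 0.803, and also above every NG2/A2B5 array, at 0.774 to 0.894. The difference from NG2 was the reverse of the sign on the brightest probe. For Cdkn1a the interval for O4 over NG2 ran from 0.379 to 3.27 on the fold scale, so 2-fold differences in either direction lay inside it. The fit has no term for the numeral, so the spread between numerals is part of this interval. Within numerals III, II and I the log2 difference was 0.44, -0.02 and 0.03 by the brighter Cdkn1a probe. By the second it was 1.12, 0.07 and -0.37.

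Rb1, the retinoblastoma gene, read 3.01, 1.80 and 2.31 on the O4 arrays III, II and I, 3.21, 3.45 and 1.89 on the NG2/A2B5 arrays and 2.92, 3.19 and 3.39 on the NG2 arrays. The O4 and NG2/A2B5 readings each overlapped the NG2 readings. O4 minus NG2 for Rb1 was -0.45 (-1.09 to 0.20, limma adjusted p = 0.728). The second Rb1 probe gave -0.06 for that difference. Rbl1, which encodes the pocket protein p107, gave -0.25 (-1.68 to 1.19). Cdkn1b, the p27 gene, read 0.238, 0.183 and 0.292 on the O4 arrays III, II and I, 0.197, 0.207 and 0.173 on the NG2/A2B5 arrays and 0.160, 0.352 and 0.213 on the NG2 arrays. All these readings lay near the arrays' 25th percentile, and O4 minus NG2 was 0.03 (-0.68 to 0.74).

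**Figure D2:**
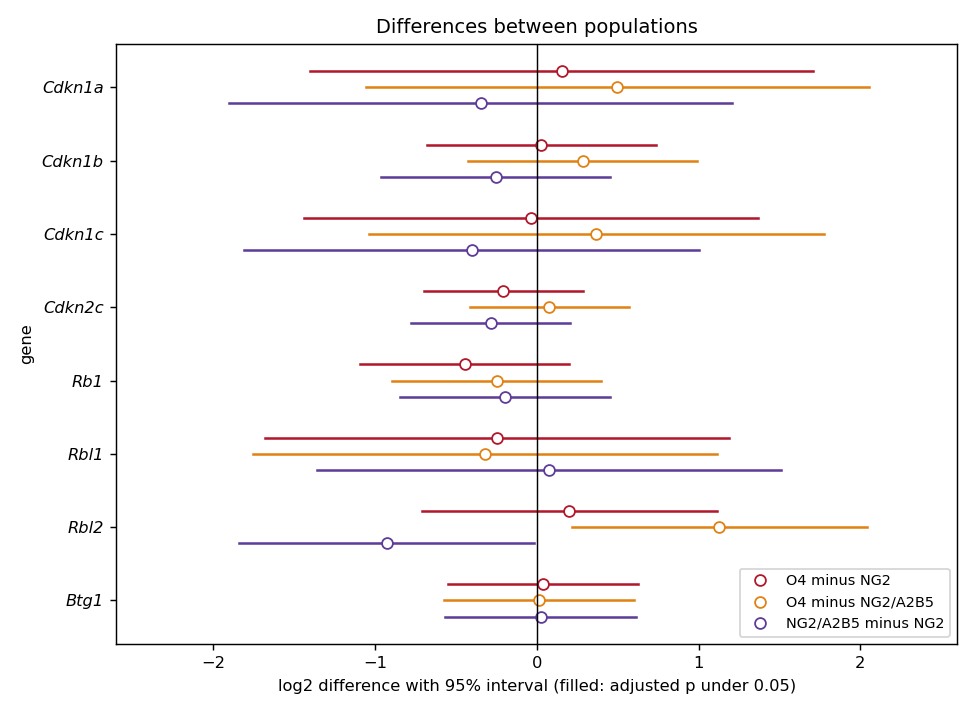
Log2 differences between populations for the 8 measured brakes, with 95% intervals from limma: O4 minus NG2 (red), O4 minus NG2/A2B5 (orange) and NG2/A2B5 minus NG2 (purple). All points are open because no adjusted p was under 0.05, and Rbl2 is the one gene whose intervals left out 0, at 1.13 and -0.93.

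The arrays can also be set against each other by numeral, with the population as a term in the model, since each numeral holds 1 array of each population. Numeral accounted for 91.4% of the variation of Cdkn1a over the 9 arrays, 88.6% for Rbl1, 84.1% for Cdkn1c and 79.3% for Btg1, against a median of 34.3% over 12025 genes. It accounted for 49.6% for Cdkn2c, 28.5% for Rbl2, 13.8% for Rb1 and 11% for Cdkn1b. Population accounted for 56.9% for Rbl2, for 0.336% to 28.5% for the other brakes, and for a median of 21.2% over all genes. The labels do not say what the numerals mark. The 3 comparisons share arrays, so they are not independent of each other.

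Cdkn1a encodes p21, the CDK inhibitor best known as a target of the tumour suppressor p53. Its intensity in numeral III was 125 in O4 cells, 83.6 in NG2/A2B5 cells and 92.0 in NG2 cells. In numeral II it was 359.6 in O4 cells, 246 in NG2/A2B5 cells and 364 in NG2 cells, and in numeral I 128, 99.5 and 126 in the same order of populations. The 3 numeral II arrays stood above all 6 others, and the numeral III and I arrays overlapped.

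Numeral III was lower than numeral II by 1.69 on the log2 scale for Cdkn1a (-2.04 to -1.34), that is 3.22-fold lower (limma adjusted p = 0.0216), and by population the difference was -1.52 in O4 cells, -1.56 in NG2/A2B5 cells and -1.98 in NG2 cells. Numeral II was higher than numeral I by 1.44 (1.09 to 1.79), or 2.72-fold (limma adjusted p = 0.0454). Numeral III minus I was -0.25 (-0.59 to 0.10, limma adjusted p = 0.520). The F test over numerals called Cdkn1a alone among the 8 (limma adjusted p = 0.0346), against 0.674% of all genes. The second Cdkn1a probe, much dimmer, read 0.653 to 1.42 in numeral III, 2.00 to 4.15 in numeral II and 0.935 to 1.42 in numeral I, and gave -1.89 for III minus II and 1.45 for II minus I.

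Both calls of Cdkn1a depended on having all 9 arrays. Leaving out any 1 array kept the differences at -1.78 to -1.56 and at 1.35 to 1.51, but raised the adjusted p to 0.0559 to 0.121 for III minus II and to 0.117 to 0.224 for II minus I (limma). The same refits left between 0 and 5 genes called in all for III minus II, where the 9 arrays gave 432. Testing all probes gave adjusted p-values of 0.0701 and 0.144 (limma), and averaging the probes of a gene gave 0.0543 and 0.138; the other 6 settings kept both calls.

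Rbl1 was called as well. The p107 gene, itself a known E2F target, read 0.210 in O4 cells, 0.312 in NG2/A2B5 cells and 0.201 in NG2 cells of numeral III. In numeral II it read 0.527, 0.750 and 0.804, and in numeral I 0.545, 0.503 and 0.625, in the same order of populations. All 3 numeral III arrays lay below the 6 others, and the O4 and NG2 readings of numeral III were under their arrays' 25th percentile.

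Numeral III was lower than II by 1.53 for Rbl1 (-2.09 to -0.97), or 2.89-fold (limma adjusted p = 0.0384). Numeral III minus I was -1.24 (-1.80 to -0.67) and was not called (limma adjusted p = 0.239), and II minus I was 0.30 (-0.26 to 0.86). Leaving out any 1 array kept III minus II at -1.74 to -1.31 with adjusted p-values of 0.0638 to 0.156 (limma). The call was also lost with all probes (0.0949) and with the mean of probes (0.0562), and held in the other 6 settings.

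Cdkn1c read low on the arrays where Cdkn1a read high. Its intensities were 22.8, 13.0 and 16.1 in O4, NG2/A2B5 and NG2 cells of numeral III, 7.14, 5.20 and 9.10 in numeral II and 17.1, 19.2 and 20.4 in numeral I. The 3 numeral II arrays read below the 6 others. III minus II was 1.27 (0.67 to 1.88), a 2.42-fold difference that missed the threshold (limma adjusted p = 0.0573), and II minus I was -1.44 (-2.04 to -0.83, limma adjusted p = 0.0969). It passed in 4 of the 8 other settings that kept all arrays for III minus II, in 3 of 8 for II minus I, and in none of the 9 refits without 1 array.

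Btg1 gave different answers by probe. The brighter probe read 46.8, 40.3 and 36.7 in O4, NG2/A2B5 and NG2 cells of numeral III, 26.7, 30.3 and 26.8 in numeral II and 32.9, 32.8 and 38.8 in numeral I. The dimmer probe read 9.46, 7.45 and 5.56 in numeral III, 10.4, 10.8 and 8.66 in numeral II and 7.89, 8.81 and 6.68 in numeral I. For III minus II the brighter probe gave 0.56 (0.17 to 0.95, limma adjusted p = 0.111) and the dimmer one -0.44, so no direction can be given for the gene.

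**Figure D3:**
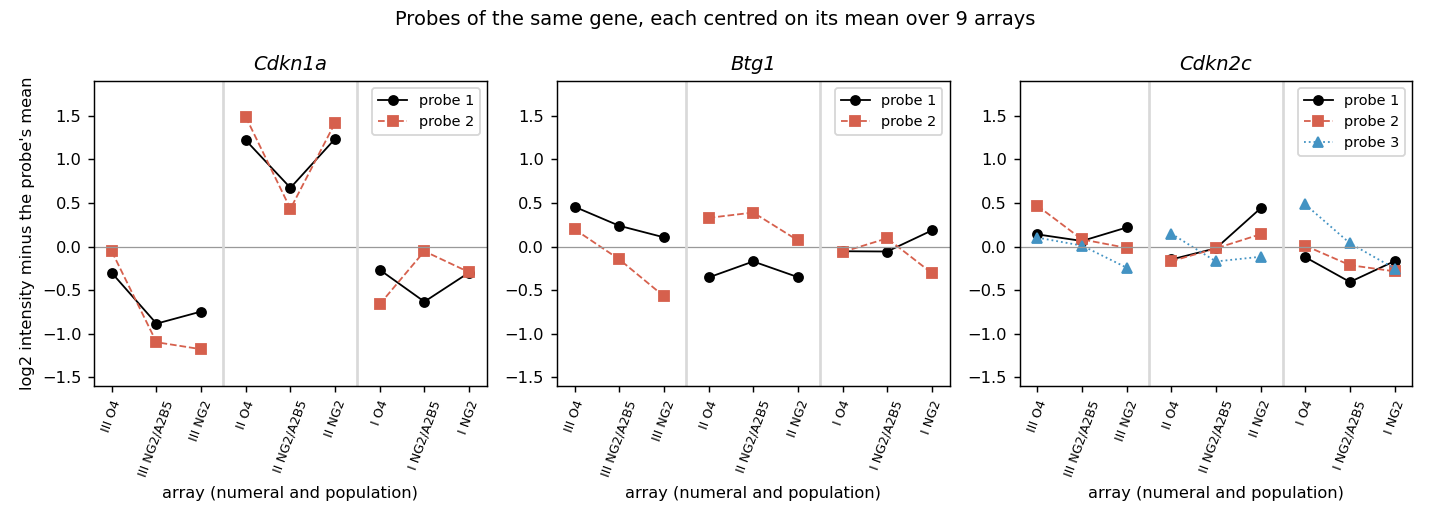
Log2 intensity minus each probe's own mean over the 9 arrays, for the probes of Cdkn1a, Btg1 and Cdkn2c, with arrays ordered by numeral and population and grey lines between numerals. Both Cdkn1a probes stand up in numeral II, while the Btg1 probes part, 0.56 against -0.44 for III minus II.

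Cdkn2c, Rb1, Rbl2 and Cdkn1b were not called between any numerals. Cdkn2c, the INK4 inhibitor p18, read 97.7 to 109 in numeral III, 84.3 to 127 in numeral II and 70.5 to 85.8 in numeral I. Its 3 numeral III arrays lay above the 3 numeral I arrays by 0.37 (-0.02 to 0.76, limma adjusted p = 0.416), a difference of 0.34 by the second probe and -0.13 by the dimmest. Rbl2 gave -0.69 for III minus I and -0.78 for II minus I (limma adjusted p = 0.396 and 0.252).

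Counted over the 8 brakes, 2 were called lower in numeral III than II (Cdkn1a and Rbl1) and none higher, against 3.55% of all genes called, 1.92% lower and 1.64% higher. Between II and I, 1 was called higher (Cdkn1a), against 0.23% of all genes, 0.0904% higher and 0.14% lower. Between III and I none was called, with 0.0% of all genes, and 2 brakes (Rbl1 and Rbl2) had an unadjusted p under 0.05 in limma, against 12.6% of genes. The median difference over the 8 brakes was 0.07 for III minus II, -0.17 for III minus I and 0.12 for II minus I, where the medians over all genes were -0.08, 0.02 and 0.10.

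The arrays were also set in order by the brightest probe of each gene. By these probes 2 brakes (Cdkn1c and Btg1) had every numeral III array above every numeral II array. Another 2 (Cdkn1a and Rbl1) had them all below, where 10.5% and 16.0% of all genes did so. Between III and I, Cdkn2c lay all above and Rbl1 all below, where 10.2% and 8.17% of genes did. Between II and I, Cdkn1a lay all above, where 14.8% of genes did, and Cdkn1c and Btg1 all below, where 6.79% did. By the dimmer probes of Btg1 and Cdkn2c the arrays overlapped in these same comparisons. For Btg1 the dimmer probe had the other sign, at -0.44 for III minus II and 0.35 for II minus I.

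**Figure D4:**
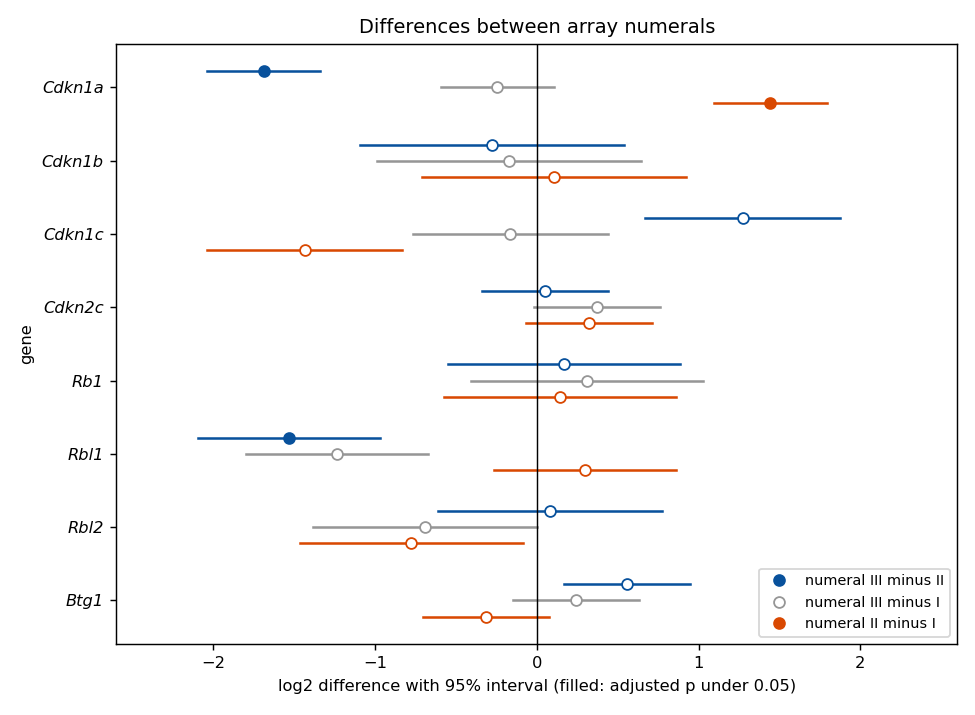
Log2 differences between array numerals for the 8 measured brakes, with 95% intervals from limma: III minus II (blue), III minus I (grey) and II minus I (orange). Filled points had an adjusted p under 0.05: Cdkn1a at -1.69 and 1.44, and Rbl1 at -1.53.

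The gene whose profile over the 9 arrays came nearest to that of Cdkn1a, among 8899 genes read over the 25th percentile on all arrays, was the tubulin gene Tubb6. Its root mean square difference from Cdkn1a was 0.15 log2 units after each gene was centred on its own mean. Ccng1 came next at 0.18 and the collagen gene Col7a1 at 0.21. Tubb6 read 18.1, 11.4 and 11.98 in O4, NG2/A2B5 and NG2 cells of numeral III, 49.0, 33.1 and 44.3 in numeral II and 21.9, 16.3 and 16.4 in numeral I, so its numeral II arrays also stood above the rest. For Cdkn1c the nearest were Bcl3, a coactivator of NF-kB, at 0.19, Selenbp1 at 0.25 and Clybl at 0.26. Bcl3 read 4.33, 3.04 and 3.22 in numeral III, 1.11, 1.06 and 1.66 in numeral II and 2.84, 3.11 and 3.21 in numeral I, low where Cdkn1c was low. The nearest to Cdkn2c were Kctd6, Fam234b and Ginm1, each at 0.09. The nearest to Btg1 were Taf9b and Lad1 at 0.09 and Dync2i1 at 0.10, and those to Rb1 were Enpp4 at 0.12, Wipf1 at 0.14 and Cd47 at 0.14. The values of 1 array share its scaling, and likeness says nothing of shared control.

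Ccng1 encodes cyclin G1, a textbook target of p53. It read 90.7, 60.8 and 71.1 in O4, NG2/A2B5 and NG2 cells of numeral III, 189, 153 and 209.6 in numeral II and 73.0, 59.5 and 87.2 in numeral I. As with Cdkn1a, the numeral II arrays stood above all others. III minus II was -1.32 (-1.69 to -0.94, limma adjusted p = 0.0246), and II minus I was 1.33 (limma adjusted p = 0.0523), which missed the threshold.

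The 250 bases before the start of Cdkn1a and Ccng1, from RefSeq on assembly GRCr8, are shown because Ccng1 was among the nearest profiles to Cdkn1a and each holds a pair of adjoining p53 half-sites with 1 mismatch in 20 bases. The motifs were chosen after the values were seen. Cdkn1a lies at chr20:7150682-7150931 on the plus strand, with the pair in capitals from base 201 to base 182 before the start. Ccng1 lies at chr10:25684877-25685126 on the minus strand, with the pair in capitals from base 242 to base 223 before the start.
Cdkn1a: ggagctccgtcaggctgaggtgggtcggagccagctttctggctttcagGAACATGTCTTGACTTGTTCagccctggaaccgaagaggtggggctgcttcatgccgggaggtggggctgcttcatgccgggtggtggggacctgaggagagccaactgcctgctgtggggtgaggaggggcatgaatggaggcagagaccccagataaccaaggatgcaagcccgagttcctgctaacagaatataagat
Ccng1: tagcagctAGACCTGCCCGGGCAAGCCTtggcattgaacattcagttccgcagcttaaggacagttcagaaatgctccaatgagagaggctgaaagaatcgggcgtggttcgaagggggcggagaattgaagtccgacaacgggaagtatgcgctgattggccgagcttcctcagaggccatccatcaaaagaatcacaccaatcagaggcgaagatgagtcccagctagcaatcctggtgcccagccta
Such a pair was found on either strand in 18 of 27457 promoters of that length (0.0656%). Among 16 promoters of the list of p53 regulators and targets described below, only that of Ccng1 held the pair. A half-site was found in 4 of those 16, of Gadd45a, Ei24, Ccng1 and Sesn1. A single p53 half-site without mismatch was found in 6.56% of promoters, and in those of Cdkn1a, Cdkn2c, Cdkn2d and Rb1 among 9 members with an entry. A match is a description of these letters and shows no binding.

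The Rbl1 promoter is shown because Rbl1 was called lower in numeral III than in II, and its window holds an E2F word. The search covered TTTCCCGC or TTTGGCGC or TTTCGCGC or TTTGCCGC on both strands. It lies at chr3:166289377-166289626 on the minus strand of GRCr8, with the word in capitals from base 18 to base 11 before the start.
Rbl1: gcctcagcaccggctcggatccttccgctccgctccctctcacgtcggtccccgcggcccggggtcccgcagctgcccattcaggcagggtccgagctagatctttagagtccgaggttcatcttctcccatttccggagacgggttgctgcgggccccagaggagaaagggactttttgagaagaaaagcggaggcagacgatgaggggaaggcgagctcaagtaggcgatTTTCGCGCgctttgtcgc
Of all promoters of that length, 1.81% held one of these words, and Rbl1 was the one of 9 members that did. Among 17 promoters of the S phase list described below, 6 held one, those of Mcm2, Tyms, Mcm7, Mcm6, Mcm5 and Pola1. Here too a match shows no binding.

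The partners and targets of the brakes were followed as lists, described by counts and medians only, and their calls rest on the same fit, in which leaving out any 1 array left at most 5 genes called for III minus II. Of all genes, 56.9% had a lower mean in numeral III than in II and 23.7% an unadjusted p under 0.05 in limma. Between II and I, 61.5% had a higher mean and 17.2% an unadjusted p under 0.05, and the list counts are to be read against these shares. Of 22 listed E2F target genes of S phase 15 were measured. All 15 had a lower mean in numeral III than in II, with a median difference of -0.72. Of the 15 genes, 4 were called lower, against 1.92% of all genes. They were Mcm5 at -1.05 (limma adjusted p = 0.0263) and Mcm4 at -0.77 (0.0445), both subunits of the replicative helicase, Rrm2 at -1.40 (0.0351), a subunit of ribonucleotide reductase, and Uhrf1 at -0.93 (0.0468), which guides maintenance DNA methylation. Between II and I, 14 of the 15 were higher in mean with a median of 0.29, against 61.5% of all genes. None was called, while 5 had an unadjusted p under 0.05 in limma, against 17.2% of all genes.

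Mcm5 read 11.2, 12.1 and 13.5 in O4, NG2/A2B5 and NG2 cells of numeral III, 19.7, 25.9 and 31.5 in numeral II and 15.9, 21.2 and 23.5 in numeral I. Its numeral III arrays read below all 6 others, as those of Rbl1 did. Among the 13 measured of 22 listed E2F, DP and MuvB partners of the pocket proteins, 12 had a lower mean in numeral III than in II, with a median of -0.35. None was called, and 6 had an unadjusted p under 0.05 in limma, with Tfdp1, a dimer partner of the E2Fs, at -0.71 (limma adjusted p = 0.0675), Mybl2 at -0.54 (0.0780) and the chromatin chaperone Rbbp7 at -0.58 (0.0853).

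Listed were 19 CDKs, cyclins and CDC25 phosphatases that the inhibitors act on or oppose, and 15 were measured. Of the 15, 13 had a lower mean in numeral III than in II. The list median was -0.52, and 2 genes were called lower, against 1.92% of all genes. Ccnd2, the cyclin D2 gene, read 45.0, 48.7 and 40.9 in O4, NG2/A2B5 and NG2 cells of numeral III, 109.7, 131 and 138.5 in numeral II and 50.6, 43.7 and 51.5 in numeral I. The difference for III minus II was -1.49 (-1.87 to -1.10, limma adjusted p = 0.0240). Ccne1, the cyclin E1 gene, gave -1.47 (limma adjusted p = 0.0276). Between II and I, 12 of the 15 had a higher mean with a median of 0.46, against 61.5% of all genes. None was called, with 11 at an unadjusted p under 0.05 in limma, against 17.2% of all genes.

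In the list of p53 regulators and targets, 18 genes were measured from 22 symbols, of which Trp53inp1 and Tp53inp1 name the same gene. Of the 18 genes, 13 had a lower mean in numeral III than in II (median -0.53). In this comparison 3 were called lower and 2 higher, against 1.92% and 1.64% of all genes. Called lower were Ccng1, Phlda3 at -1.24 (limma adjusted p = 0.0360), which encodes a repressor of AKT, and Mdm2 at -0.66 (0.0494), the ubiquitin ligase of p53. Called higher were Sesn1 at 1.15 (0.0400), a sestrin that restrains mTORC1, and Gadd45b at 0.85 (0.0440), a stress-response gene. Mdm2 read 37.2 to 38.4 in numeral III, 53.8 to 64.7 in numeral II and 36.0 to 40.0 in numeral I. Between II and I, 14 of 18 had a higher mean with a median of 0.68, none was called, and 12 had an unadjusted p under 0.05 in limma.

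In the remaining lists no gene was called between numerals III and II. For the turnover and relay of the brakes, such as the SCF ligase and its inputs, 22 genes were measured from 24 listed symbols. Among those symbols Kpc1 and Rnf123 name the same gene. Of the 22 genes, 14 had a lower mean in numeral III than in II (median -0.13), with 6 at an unadjusted p under 0.05 in limma. Both counts lie near the shares over all genes, 56.9% and 23.7%. The smallest p-values were those of Pcna, the sliding clamp that p21 binds and also a gene of the S phase list, at -1.10 (limma adjusted p = 0.0735), Foxo3, a transcription factor known to raise p27, at 0.54 (0.114) and Cks1b, the cofactor of SKP2, at -0.34 (0.147). For the BTG/TOB relatives and their CCR4-NOT and PRMT1 partners, 13 genes were measured from 19 listed symbols. Among those symbols Rqcd1 and Cnot9 name the same gene. Of the 13 genes, 8 had a lower mean (median -0.14), with 4 at that level, again near the shares over all genes. They were led by the deadenylase subunit Cnot9 at -0.63 (limma adjusted p = 0.0610), Btg3 at -0.78 (0.0618) and the arginine methyltransferase Prmt1 at -0.99 (0.101). The list of other CDK inhibitors had 3 genes measured, Cdkn2b, Cdkn2a and Cdkn2aip, of which Cdkn2aip is not itself an inhibitor. They gave -1.46, 2.19 and -0.27 for III minus II, with adjusted p-values of 0.241 to 0.521 (limma). Cdkn2a was dim on some arrays, and its SD over the 3 numeral II arrays was 4.66 log2 units, so the size of its difference is not reliable. Between III and I no gene of these 7 lists was called. Lower in mean were 13 of 15 S phase genes (median -0.45), 12 of 13 partners of the pocket proteins and 10 of 15 CDKs and cyclins. Cdkn2b, Cdkn2a and Cdkn2aip were lower too, as were 47.2% of all genes. The turnover, p53 and BTG/TOB lists leaned the other way, with 15 of 22, 12 of 18 and 8 of 13 genes higher, against 52.8% of all genes. In the 3 population comparisons no gene of the 7 lists was called either. The list medians lay between -0.33 and 0.09, apart from -0.73 over Cdkn2b, Cdkn2a and Cdkn2aip for O4 minus NG2/A2B5. The INK4 gene Cdkn2b gave 2.32 for NG2/A2B5 minus NG2 (0.55 to 4.09, limma adjusted p = 0.970).

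**Figure D5:**
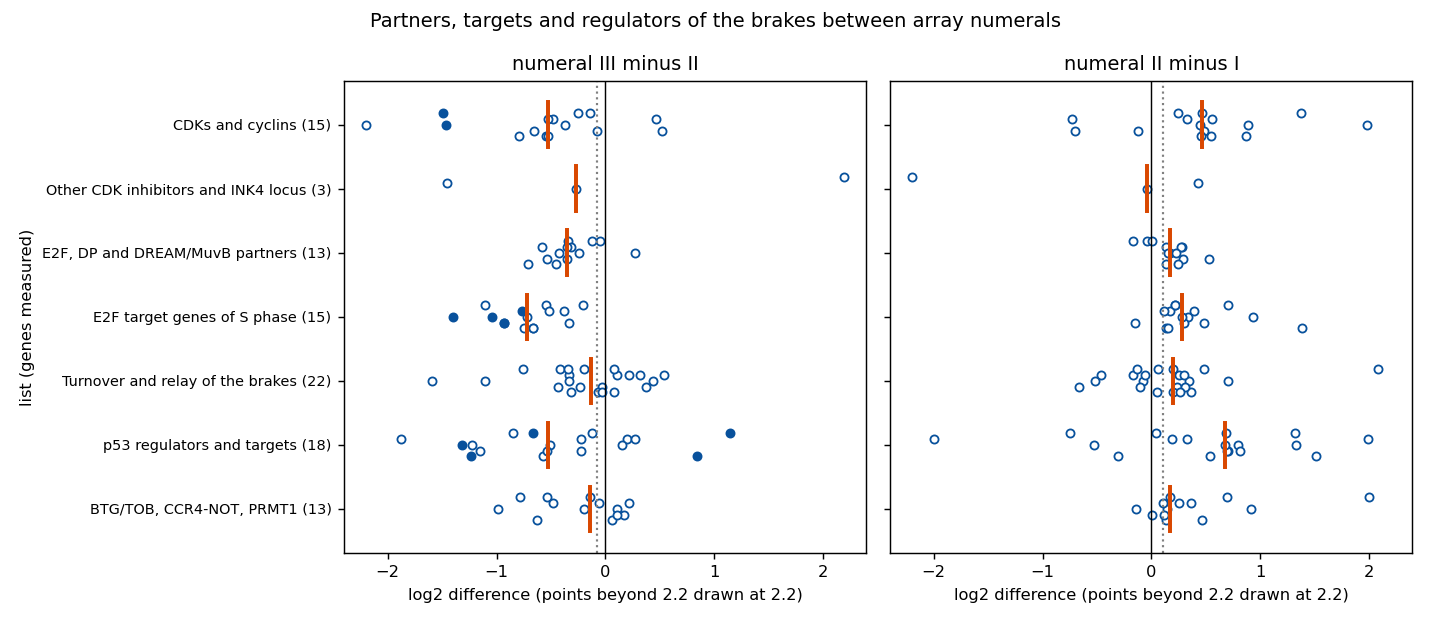
Log2 differences of the measured genes of 7 lists around the brakes, for numeral III minus II (left) and II minus I (right). Each circle is a gene, filled where the adjusted p was under 0.05, orange bars are list medians and the dotted line is the median of all genes. The medians of the S phase, cyclin and p53 lists were -0.72, -0.52 and -0.53 on the left and 0.29, 0.46 and 0.68 on the right.

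Of the markers of other cell types, Aldoc, Gfap and Vwf were called between numerals, and no microglial, neuronal or pericyte and fibroblast marker was. Over all genes 1.64% were called higher in numeral III than II, and 0.14% lower in II than I. The summed intensity of 8 measured astrocyte markers was 119 to 168 in numeral III, 71.4 to 107 in numeral II and 96.7 to 117 in numeral I, a sum made up mostly of Slc1a3 (38.6 to 96.4) and Aldoc (15.1 to 69.0). Aldoc and Gfap were called higher in numeral III than II, at 1.27 and 1.72 (limma adjusted p = 0.0284 and 0.0240), although Gfap, the defining astrocyte gene, read at 0.113 to 0.597 and was dim on some arrays. Over the list, 5 of 8 astrocyte markers had a higher mean in III than II (median 0.17), and 6 of 8 a higher mean in II than I (median 0.06). The endothelial marker Vwf was called higher in III than II at 1.95 and lower in II than I at -1.85 (limma adjusted p = 0.0225 and 0.0454). Most of its list had the other sign: 4 of 6 endothelial markers had a lower mean in III than II (median -0.10), and 4 of 6 a higher mean in II than I (median 0.11).

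Summed over their lists, 6 endothelial markers read 8.84 to 11.3 in numeral III, 6.66 to 8.97 in II and 9.25 to 10.2 in I, 11 microglial markers 10.9 to 13.0, 12 to 16.4 and 11.7 to 13.3, 6 neuronal markers 8.08 to 14, 12.9 to 17.7 and 11.4 to 14.4, and 9 pericyte and fibroblast markers 23.6 to 28.2, 27.2 to 33.9 and 23.2 to 24.4 in the same order. Of these lists 5 astrocyte, 4 endothelial, 3 microglial, 3 neuronal and 3 pericyte and fibroblast markers read over the 25th percentile on all arrays. Of the dimmer markers, Cx3cr1 and Ptprc of microglia reached at most 0.350 and 0.240, Snap25 of neurons 0.181, and Pdgfrb and Rgs5 of pericytes 0.592 and 0.166. Other markers of the same lists read over the 25th percentile on all arrays. Brighter microglial markers were Itgam (3.88 to 7.94) and Cd68 (3.95 to 6.93), and a brighter neuronal one was Gad1 (6.06 to 15.4). In the pericyte and fibroblast list Col1a1 read 4.92 to 16.6 and Col1a2 12.9 to 17.6. Oligodendrocyte lineage genes differed in mean as well. For III minus II, 7 of 11 were higher with a median of 0.46, none was called, and 6 had an unadjusted p under 0.05 in limma, among them Ugt8, a galactolipid enzyme gene, at 0.88, the lineage factor gene Sox10 at 0.46 and Bcas1 at 0.44, each with every numeral III array above numeral II. Of all genes, 43.1% had a higher mean in III than II and 23.7% an unadjusted p under 0.05 in limma. Every numeral III array lay above numeral II in 10.5%. For III minus I, 9 of 11 lineage genes were higher, against 52.8% of all genes, with a median of 0.40. None was called, and 3 had an unadjusted p under 0.05 in limma, against 12.6% of all genes. For II minus I the median was -0.01 with 5 of 11 higher, against 61.5% of all genes. The part of these cell types and of the lineage genes in the differences of Cdkn1a, Rbl1 and the lists was not tested.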

How the data were processed

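Per the labels' protocols, total RNA (10 ng, RNA integrity number at least 8.7) was amplified by 2 rounds of in vitro transcription, labelled and hybridised, with spiked RNA for normalization. The values are the probe intensities that the authors deposited, scaled on a linear scale; the scanner and its software: not given in the sources used here. Values coded -9999 were treated as missing, values at or below 0 were set to the array's smallest positive value, and log2 of the deposited intensities was taken without further normalization. Symbols came from the platform annotation, updated by Entrez identifier through the RefSeq table of GRCr8 (16836 of 16865 probes with 1 symbol matched, 1 updated; 165 probes with several symbols and 18099 with none stayed out). The probe with the highest mean stood for a gene (12167 genes). Populations were compared with limma 3.58.1 (lmFit and eBayes in R 4.3.3, two-sided tests) with no block, numerals in a model of population plus numeral, both over all genes with Benjamini-Hochberg adjustment. Errors are SD over arrays or 95% intervals of a contrast. With no counts behind them, the values are only as precise as the number of arrays allows. The 2 fits had 6 and 4 residual degrees of freedom.

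The brakes and the lists were chosen with earlier results of these data known. Named were all 10 brakes with every probe, of each list, in part, every called gene or, with fewer than 3 called, the 3 with the smallest p, and for each brake read over the 25th percentile on all arrays the 3 nearest profiles. Other settings were quantile normalization, centring on array medians, genes over the 25th percentile only, a floor at it, the mean of probes, all probes, trend and robust variances (statmod 1.5.0), the numeral as a block, only the 6 arrays compared, no population term, and leaving out each array. The scripts were tested on simulated data. Figures used matplotlib 3.10.9 in Python 3.11.15.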

Additional observations from a re-analysis of the deposited data

How the results depend on the processing

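Over all genes, leaving out each array in turn gave 0 to 5 genes called for numeral III minus II (432 with all arrays), 0 to 3 for II minus I (28), 0 to 2 for III minus I (0), 0 to 2 in the F test over numerals (82), 1 to 2 for O4 minus NG2 (1), 0 to 4 for O4 minus NG2/A2B5 (1), 0 to 3 for NG2/A2B5 minus NG2 (0) and 1 to 4 in the F test over populations (1). For III minus II, II minus I, III minus I and the F test over numerals in that order, trend and robust variances gave 1887, 833, 311 and 1821 genes, the floor at the 25th percentile 1293, 402, 49 and 918, genes over that percentile only 1217, 365, 25 and 823, the mean of probes 136, 2, 0 and 36, all probes 0, 0, 0 and 0, and no population term 492, 63, 0 and 242. For O4 minus NG2, O4 minus NG2/A2B5, NG2/A2B5 minus NG2 and the F test over populations, the floor, the filter and trend and robust variances each gave 0, 0, 0 and 0, all probes 2, 1, 1 and 2, the mean of probes 2, 1, 1 and 2, and only the 6 arrays compared 0, 1 and 0. The cause was not tested.

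The numeral as a replicate block gave 0, 0, 0 and 0 genes as a fixed term, 1, 1, 0 and 1 as a random block, and 124, 1, 94 and 99 as a fixed term with trend and robust variances, and called no brake. Deviations from population means correlated at 0.037 to 0.144 over the 9 pairs of arrays with the same numeral and at -0.107 to 0.007 over the 18 others (12025 genes), so each array was nearest to its own numeral, but not every pair passed 0.1 and no label says what a numeral marks. For the brakes, 882 alternative values gave 33 lost and 8 gained calls, all between numerals, and 52 changed sign, none of them called. With 3 arrays a group and with Cdkn1b, Rbl1 and Rbl2 near the dim end, a small difference was not detectable.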
